A study of Rattus norvegicus with 4 samples.

Results

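The genes described here encode enzymes of the citric acid cycle and the entry of pyruvate into it, and 9 were chosen by symbol: Pdha1, Cs, Idh3a, Idh2, Ogdh, Suclg1, Fh, Mdh2 and Mdh1. Of these, 8 were measured by 12 probe sets, out of 10411 genes that the platform's annotation names with a single symbol, and Fh, fumarate hydratase, was not analysed here. RNA of visceral adipose tissue was hybridised to single-colour arrays, 2 from obese and 2 from control male Wistar rats aged 130 days. Genotype, diet and treatment are not given in the labels, which name the groups only as obese and control and leave unsaid whether each RNA came from a single animal or from pooled animals, although the title of obese replicate 1 speaks of a rat. The spread behind every limma p-value here is that between these samples, drawn in part from other probe sets of similar signal. It may be technical. For a gene with several probe sets the one with the highest mean signal over the 4 arrays was taken as its main probe set.

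The citric acid cycle runs in the mitochondrial matrix, where it oxidises the acetyl group of acetyl-CoA and passes the electrons to NADH and to the respiratory chain. Pyruvate, the end product of glycolysis, enters the matrix through a carrier and is turned into acetyl-CoA by the pyruvate dehydrogenase complex. In adipocytes the cycle also feeds fatty acid synthesis, because citrate leaves the mitochondrion and is cleaved to acetyl-CoA in the cytosol, and malate and isocitrate can serve there as sources of NADPH.

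The arrays had median signals of 82.2 and 75 in obese tissue and of 83.1 and 82.8 in control tissue, on a linear intensity scale. Transcripts of other tissues differed between the arrays, and obese replicate 1 stood apart in several of them. The pancreatic amylase Amy2a3 had a signal of 531.8 on it, against 3.3 on obese replicate 2 and 1 and 1.7 on the control arrays. The epithelial adhesion gene Epcam had 198.2 and 13.8 in obese tissue, against 25.4 and 20 in control tissue. Others had a different pattern. The pancreatic genes Cpa1 and Cela1 were highest on control replicate 2, at 622.5 and 207.8, against 197 and 166.2 on obese replicate 1. The mesothelial genes Msln and Wt1 were lowest on obese replicate 2, at 164.7 and 86.7. The summed signal of 12 pancreas and liver genes was 2090.6 and 441.2 in obese tissue and 470 and 1172.9 in control tissue, and that of 7 mesothelial and epithelial genes was 1901.2 and 382.1 against 814.6 and 971.8. For the members and for several of the lists and other named genes, values without obese replicate 1 are given below beside those with it.

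Most of the measured cycle genes had slightly higher signals in obese tissue, and Idh2 had a lower one. The 2 obese signals both exceeded the 2 control signals for 7 of the 8 genes and both fell short of them for 1. Over all 12929 tested probe sets these shares were 15.6% above and 24.4% below, and among the 4816 at least as bright as the dimmest member they were 21.0% and 22.3%. Other scalings moved the split over all tested probe sets, to 20.4% above and 18.8% below after median centring of each array, 18.9% and 20.3% after quantile normalization and 19.5% and 19.9% after cyclic loess, and left the 7 and 1 members in place. The median log2 difference, obese minus control, was 0.19 over the 8 genes and -0.04 over all tested probe sets. The median over the genes was 0.30 without obese replicate 1 and 0.15 without obese replicate 2. None of the 8 passed limma's moderated test when p-values were adjusted over every tested probe set by Benjamini-Hochberg, with adjusted p between 0.490 and 0.802 at a threshold of 0.05. The share of all probe sets that passed was 0%. An unadjusted p under 0.05 was found for 2 of the 8, Mdh2 and Ogdh, and for 8.30% of all tested probe sets. The smallest two-sided p that an exact permutation test can reach with 2 arrays against 2 is 0.333.

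**Figure D1:**
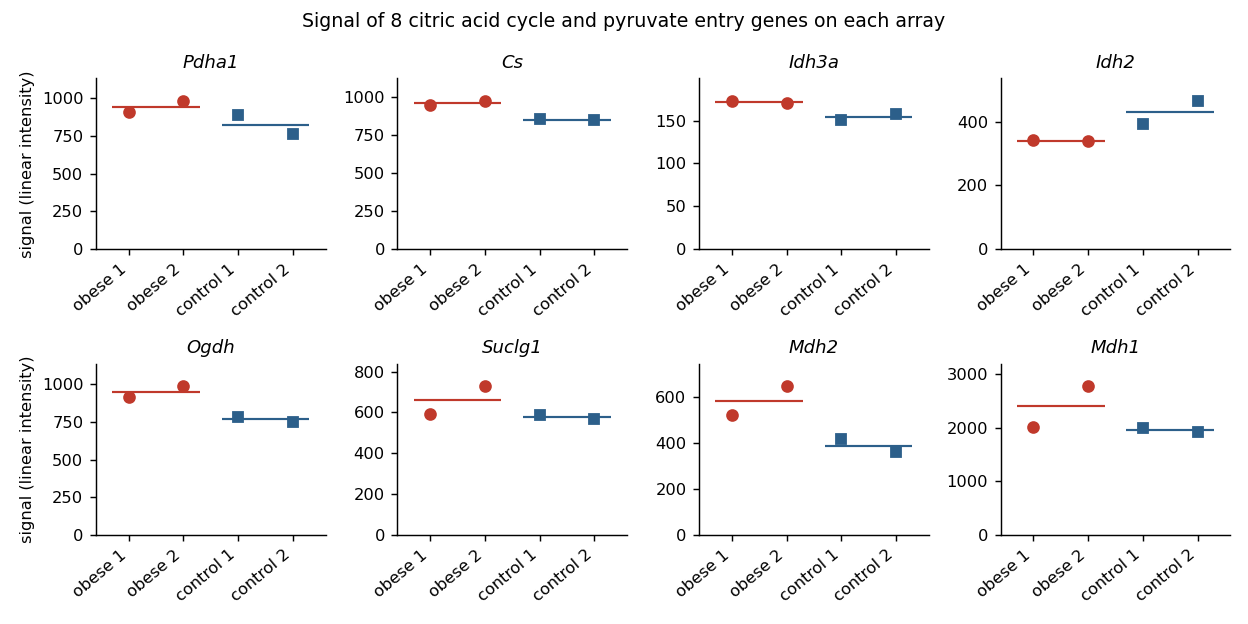
Signal of the main probe set of 8 genes on each array, as linear intensity on axes that start at 0, with circles for obese, squares for control and lines for the group means (n = 2 each). Mdh2 is at 522.1 and 648.8 in obese against 416.8 and 360.1 in control tissue, and Idh2 is the gene whose obese points lie lower, at 341.4 and 338.9 against 391.8 and 465.7.

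Pyruvate entry was represented by Pdha1, the catalytic alpha subunit of pyruvate dehydrogenase that its kinases phosphorylate. Pdha1 had signals of 905.9 and 983.3 in obese tissue, against 888.1 and 761.9 in control tissue. The nearest arrays of the groups were obese replicate 1 and control replicate 1, which differed by less than the control arrays did from each other. Its means were 944.6 ± 54.7 in obese tissue and 825 ± 89.2 in controls (SD, n = 2 each), a log2 difference of 0.20 ± 0.14 (SE; limma adjusted p = 0.747). This difference was 0.26 without obese replicate 1 and 0.09 without control replicate 2. A second Pdha1 probe set gave 0.26 ± 0.21, with overlapping signals of 248.1 and 310.8 in obese and 273 and 195.8 in control tissue.

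Citrate synthase, Cs, joins acetyl-CoA to oxaloacetate and is widely used as a measure of mitochondrial content. Its main probe set read 950.8 and 976.2 in obese tissue, against 856.7 and 848.3 in control tissue. Both groups were tight and did not overlap, and the gap between them exceeded the spread within either. The means were 963.5 ± 18.0 in obese tissue and 852.5 ± 5.94 in controls, a difference of 13.0% or 0.18 ± 0.12 on the log2 scale (limma adjusted p = 0.741). The other probe sets of Cs gave 0.16 ± 0.12 and 0.17 ± 0.13, and neither overlapped between the groups. With any single array left out, the main value lay between 0.16 and 0.20, the highest without obese replicate 1.

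The isocitrate dehydrogenases differed in direction. Idh3a encodes the alpha subunit of the NAD-dependent enzyme of the cycle, and its signals were 173.2 and 170.2 in obese against 151.1 and 157.2 in control tissue. Idh2 encodes the mitochondrial NADP-dependent enzyme, which yields NADPH, and it read 341.4 and 338.9 in obese against 391.8 and 465.7 in control tissue. Neither gene overlapped between the groups, and control replicate 2 was the highest array for Idh2. Idh3a averaged 171.7 ± 2.12 in obese tissue and 154.15 ± 4.31 in controls, a log2 difference of 0.16 ± 0.14 (limma adjusted p = 0.802), and 0.14 without obese replicate 1. Idh2 averaged 340.15 ± 1.77 in obese tissue and 428.75 ± 52.3 in controls, a log2 difference of -0.33 ± 0.14 (limma adjusted p = 0.615). Its 95% interval ran from -0.67 to 0.01. The Idh2 difference was -0.33 without obese replicate 1, -0.20 without control replicate 2 and -0.45 without control replicate 1. The difference of Idh3a exceeded that of Idh2 by 0.48 on the log2 scale. Since Idh3a was separated upwards and Idh2 downwards, their contrast within each array had to separate the groups too. Its exact permutation test was thus bound to give a two-sided p of 0.333, the smallest that the design allows. That p adds nothing to the values of Idh3a and Idh2 themselves. Each of these genes was measured by 1 probe set.

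Ogdh, the 2-oxoglutarate decarboxylase subunit of the next dehydrogenase, read 915.6 and 989.4 in obese tissue, against 786.5 and 750.7 in control tissue. The groups lay apart by more than the arrays within either group. Its means were 952.5 ± 52.2 in obese tissue and 768.6 ± 25.3 in controls, a difference of 23.9% or 0.31 ± 0.12 on the log2 scale (limma unadjusted p = 0.0495, adjusted p = 0.599). It lay between 0.25 and 0.36 with any single array left out, the highest without obese replicate 1. Suclg1, the alpha subunit of succinyl-CoA synthetase, read 593.8 and 729.7 in obese tissue, against 585.3 and 567.7 in control tissue. Here obese replicate 2 was high and obese replicate 1 lay close to the control arrays. The means were 661.75 ± 96.1 in obese tissue and 576.5 ± 12.4 in controls, a log2 difference of 0.19 ± 0.15 (limma adjusted p = 0.766), and it was 0.34 without obese replicate 1 and 0.04 without obese replicate 2.

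Mdh2, the mitochondrial malate dehydrogenase that closes the cycle by forming oxaloacetate, had the largest difference of the 8 genes. Its signals were 522.1 and 648.8 in obese tissue, against 416.8 and 360.1 in control tissue. Every obese array was above every control array. In linear signal the gap was wider than the distance between the control arrays and narrower than that between the obese arrays. On the log2 scale the gap was slightly wider than the distance between the obese arrays, which was 0.31. The means were 585.45 ± 89.6 in obese tissue and 388.45 ± 40.1 in controls, a difference of 50.2% between geometric means or 0.59 ± 0.16 on the log2 scale (limma unadjusted p = 0.0111, adjusted p = 0.490). The 95% interval, without adjustment for the number of probe sets, ran from 0.19 to 0.98. The difference was 0.74 without obese replicate 1, 0.43 without obese replicate 2, 0.69 without control replicate 1 and 0.48 without control replicate 2. By unadjusted p this probe set ranked 291 of 12929.

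Mdh1, the cytosolic malate dehydrogenase of the malate-aspartate shuttle, was measured by a pair of probe sets. The main one read 2019.1 and 2782.5 in obese tissue, against 1992.7 and 1917.6 in control tissue. Obese replicate 1 exceeded the nearer control array by less than the control arrays differed from each other, and obese replicate 2 stood well above all others. The means were 2400.8 ± 539.8 in obese tissue and 1955.15 ± 53.1 in controls, a log2 difference of 0.28 ± 0.19 (limma adjusted p = 0.742). It was 0.51 without obese replicate 1 and 0.05 without obese replicate 2. The second probe set read 519.8 and 665.2 in obese against 388.7 and 441 in control tissue, without overlap, a log2 difference of 0.51 ± 0.16 (limma unadjusted p = 0.0228, adjusted p = 0.526). The probe sets of Mdh1 thus differed in size and shared a direction. The difference of the Mdh2 probe set exceeded that of the main Mdh1 probe set by 0.31. An exact permutation test of this contrast gave a two-sided p of 0.333, the smallest that the design allows. That p therefore adds nothing to the values. The contrast also depends on the probe set, since the second one of Mdh1, at 0.51, lay closer to the 0.59 of Mdh2. Its contrast with Mdh2 was not tested.

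**Figure D2:**
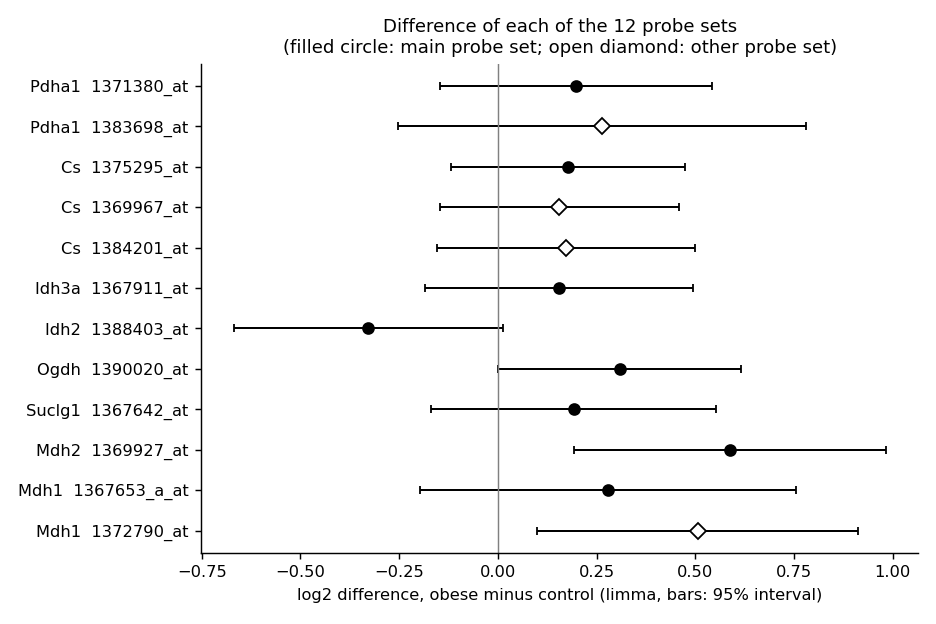
Log2 difference, obese minus control, of each of the 12 probe sets of the 8 genes, with 95% intervals from limma that are not adjusted for the number of probe sets. Of the 12, 11 lie above 0 and 1, Idh2, lies below, and the intervals of all but Ogdh, Mdh2 and the second probe set of Mdh1 cross 0.

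The promoters of Mdh2 and Ogdh are shown because these were the 2 members with an unadjusted p under 0.05, and that of Idh2 because it was the member with the lower signal in obese tissue. Sequences are those of RefSeq on the rat assembly GRCr8, which held a promoter for 8 of the 9 members, Fh included and Idh3a not, and each spans 300 bases around the transcript start that the promoter table uses, most of them upstream. For Ogdh that start lies inside the gene's annotated span, downstream of its outermost start. Mdh2 lies at chr12:26543792-26544091 on the minus strand, Ogdh at chr14:85363781-85364080 on the plus strand and Idh2 at chr1:143467199-143467498 on the minus strand. All are written 5′ to 3′ in the gene's own direction. Capitals mark TGACGTCA, the cAMP response element, in Mdh2 and Ogdh, the word TCGCGAGA on either strand in Mdh2, and CCAAT in Idh2.
Mdh2: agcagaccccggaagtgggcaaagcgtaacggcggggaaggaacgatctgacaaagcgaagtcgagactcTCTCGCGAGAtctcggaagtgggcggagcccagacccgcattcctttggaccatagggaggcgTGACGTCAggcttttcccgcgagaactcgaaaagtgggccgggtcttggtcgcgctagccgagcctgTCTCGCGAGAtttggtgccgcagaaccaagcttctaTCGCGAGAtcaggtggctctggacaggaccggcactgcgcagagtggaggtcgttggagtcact
Ogdh: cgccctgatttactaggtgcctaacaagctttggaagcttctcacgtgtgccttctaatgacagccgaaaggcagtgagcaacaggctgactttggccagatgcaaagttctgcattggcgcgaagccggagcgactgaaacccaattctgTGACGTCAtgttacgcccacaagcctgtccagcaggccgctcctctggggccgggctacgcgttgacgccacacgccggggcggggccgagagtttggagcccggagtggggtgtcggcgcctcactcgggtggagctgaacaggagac
Idh2: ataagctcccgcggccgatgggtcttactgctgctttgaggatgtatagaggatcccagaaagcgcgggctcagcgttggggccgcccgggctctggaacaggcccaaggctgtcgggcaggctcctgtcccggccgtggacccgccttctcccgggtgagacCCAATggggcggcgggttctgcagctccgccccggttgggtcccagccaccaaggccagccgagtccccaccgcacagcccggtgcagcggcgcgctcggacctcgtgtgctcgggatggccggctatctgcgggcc

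The motifs were picked after the promoters had been looked at, so their counts are a description. The palindrome TGACGTCA stood in 2 of the 8 member promoters, at position -117 from the table's start in Mdh2 and at -99 in Ogdh, and in 1.83% of 33469 promoters. Its companion in Mdh2, the word TCGCGAGA or its reverse complement formed 3 separate sites in the Mdh2 promoter, of which 2 were the 10-base palindrome, at positions -180, -50 and -14. It occurred in 0.855% of all promoters, and 3 promoters in all held 3 or more such sites. CCAAT, read on both strands, stood in 6 of the 8 and in 37.5% of all promoters. Of the 8, only Mdh2 held the ETS site CCGGAAG (8.75% of all promoters), and only Ogdh the E box CACGTG (6.42%). The nuclear receptor half-site AAGGTCA (4.61% of all promoters) and the NRF1 core GCATGCGC (2.47%) were in 0 of the 8. The searched words did not overlap each other in these windows, apart from both strands of a palindrome. The 3 promoters printed were 60.7% G and C for Mdh2 and Ogdh and 70% for Idh2, against a median of 51.7% over all promoters.

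The remaining subunits of the cycle were read from a list of 11 genes, of which 10 were measured and tested, and 0 passed in either direction. Their median log2 difference was 0.25, with 9 higher and 1 lower in obese tissue. The groups did not overlap for 7 upwards and 1 downwards. Over all tested probe sets these shares were 15.6% and 24.4%, and among the bright ones 21.0% and 22.3%. The median of the list was 0.33 without obese replicate 1 and 0.13 without obese replicate 2. The ADP-forming succinyl-CoA synthetase subunit Sucla2 had the largest t of the list, with signals of 543.2 and 652.8 in obese against 498.5 and 461.1 in control tissue and a log2 difference of 0.31 ± 0.14 (limma adjusted p = 0.63), with 0.45 without obese replicate 1 and 0.18 without obese replicate 2. The partner subunit of Suclg1 in the GTP-forming enzyme, Suclg2, differed by 0.03 ± 0.13. Dlst, which carries the succinyl transferase step beside Ogdh, had the smallest t, with 360.5 and 368.3 in obese against 398 and 375.9 in control tissue and a difference of -0.09 ± 0.12. Dld, the dihydrolipoamide dehydrogenase shared by the pyruvate and 2-oxoglutarate complexes, read 583.4 and 975 in obese against 546.3 and 580.2 in control tissue, so that its 0.42 ± 0.25 lay mostly in obese replicate 2.

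Upstream of the cycle, 5 of 6 further pyruvate entry genes were measured, with 4 higher and 1 lower in obese tissue and a median log2 difference of 0.21 (0.28 without obese replicate 1), and 0 passed. Mpc1, a subunit of the mitochondrial pyruvate carrier, read 613.1 and 914.1 in obese tissue, against 467.1 and 463.1 in control tissue. The groups did not overlap, but the gap between them was narrower than the distance between the obese arrays, with a log2 difference of 0.69 ± 0.20 (limma unadjusted p = 0.0161, adjusted p = 0.515), which was 0.97 without obese replicate 1 and 0.40 without obese replicate 2. Mpc2, the other subunit of that carrier, overlapped between the groups, at 383.8 and 531.3 in obese against 508.1 and 482.4 in control tissue, and differed by -0.13 ± 0.18. Pc, pyruvate carboxylase, makes the oxaloacetate that replaces what leaves the cycle, and it read 359.1 and 383 in obese tissue, against 291.5 and 261.8 in control tissue. Its log2 difference was 0.42 ± 0.13 (limma unadjusted p = 0.018, adjusted p = 0.522) and stayed between 0.35 and 0.50 with any single array left out. Pdhb, the beta subunit that pairs with Pdha1, read 612.2 and 671.1 in obese against 539.1 and 565.9 in control tissue, a difference of 0.21 ± 0.12.

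Kinases and phosphatases that switch pyruvate dehydrogenase off and on did not share a direction: 2 of 6 measured genes were higher, 4 were lower and 0 passed, with a median of -0.06. The sign of that median turned without obese replicate 2 (0.11) and without control replicate 1 (0.0019), and without obese replicate 1 it was -0.18. Pdk4, the kinase induced by fasting, overlapped between the groups at 232.1 and 329.5 in obese against 262.6 and 167.8 in control tissue. Pdk1 had the largest t, with 164.5 and 192.8 in obese against 153.2 and 120.7 in control tissue and a difference of 0.39 ± 0.18 (limma adjusted p = 0.642), with 0.50 without obese replicate 1 and 0.22 without control replicate 2. Pdk3 had the smallest, with 62 and 45.1 in obese against 81.8 and 67.4 in control tissue and a difference of -0.49 ± 0.24 (limma adjusted p = 0.654), with -0.72 without obese replicate 1 and -0.26 without obese replicate 2.

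The enzymes and carriers that link the cycle to the cytosol had 9 of 15 measured members higher and 6 lower, a median log2 difference of 0.03, and 0 that passed. Without obese replicate 1 the median was 0.15. The groups did not overlap for 6 of the 15 upwards and 2 downwards. Over all tested probe sets these shares were 15.6% and 24.4%, and among the bright ones 21.0% and 22.3%. Among the 6 were proteins that take citrate towards fatty acids. The citrate carrier Slc25a1 read 533.1 and 724.4 in obese against 453.6 and 490.5 in control tissue (0.40 ± 0.18, limma adjusted p = 0.625). ATP citrate lyase, Acly, read 609.5 and 598 against 559.8 and 487.4 (0.21 ± 0.13, limma adjusted p = 0.717). The dicarboxylate carrier Slc25a10, which exports malate, had the largest t, with 179.4 and 244.3 in obese against 155.8 and 140.3 in control tissue and a difference of 0.50 ± 0.19 (limma adjusted p = 0.581), which was 0.72 without obese replicate 1 and 0.28 without obese replicate 2. Malic enzyme, Me1, which makes NADPH from malate, read 270.6 and 411.9 in obese against 240.4 and 210.8 in control tissue (0.57 ± 0.22), with 0.87 without obese replicate 1 and 0.27 without obese replicate 2. Idh1, the cytosolic counterpart of Idh2, overlapped between the groups at 865 and 1209.6 in obese against 945.4 and 995.2 in control tissue. The aspartate-glutamate carrier Slc25a13 had the smallest t, at -0.76 ± 0.34 with signals near the floor, 33.5 and 21 in obese against 35.4 and 57.3 in control tissue.

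**Figure D3:**
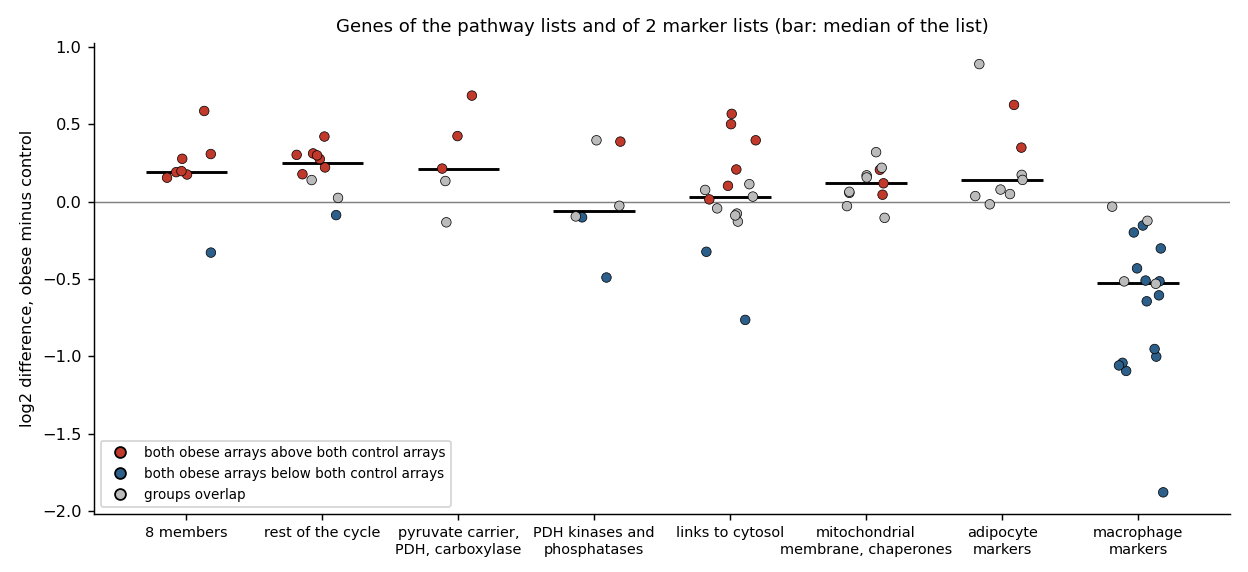
Log2 difference, obese minus control, of each tested gene of the pathway lists and of 2 marker lists, where PDH stands for pyruvate dehydrogenase and bars are list medians. Red points mark genes whose obese arrays both lie above both control arrays, blue points the opposite, and grey points overlapping groups; the 8 members have a median of 0.19 and the macrophage markers one of -0.52.

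Other mitochondrial compartments were represented by a separate list. Of 17 genes for outer membrane, import and chaperone proteins and their regulators, 11 were tested, 9 were higher and 2 lower in obese tissue with a median log2 difference of 0.12, and 0 passed. That median was 0.16 without obese replicate 1, 0.04 without obese replicate 2 and 0.05 without control replicate 2. The groups did not overlap for 3 of the 11, all upwards, beside 15.6% of all tested probe sets and 21.0% of the bright ones. Vdac3, a porin, had the largest t (0.21 ± 0.16), and the mitochondrial transcription factor Tfam the smallest (-0.10 ± 0.14). The coactivator Ppargc1a lay under the floor of 20.8 on all 4 arrays.

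Cell type markers differed alongside these values, and their part in the results was not tested; none passed limma's test over all probe sets. In bulk tissue fewer cells of a type and less RNA per cell cannot be told apart. Of 18 measured macrophage markers, 18 were lower in obese tissue and 14 did not overlap. Of all tested probe sets 24.4% lay apart downwards, and of the bright ones 22.3%. The macrophage markers had summed signals of 10707.5 and 10544.9 in obese and 14632 and 17915.2 in control tissue. Their median log2 difference was -0.52, with -0.66 without obese replicate 1 and -0.79 without control replicate 1. Of 12 measured lymphocyte markers, 10 were tested and 9 of these were lower. The groups did not overlap for 5 downwards and 1 upwards, beside the 24.4% and 15.6% of all tested probe sets. The 12 had summed signals of 1023.7 and 836.3 in obese and 1932.4 and 1493.5 in control tissue. Much of that sum came from Cd4, Ptprc and Cd37, which did not overlap, as Cd8a and Lck did not. Cd3d and Cd3g overlapped, with 77.7 and 150.8 on control replicate 1 against 26.2 and 65.3 on control replicate 2. The median of the tested lymphocyte markers was -0.73, with -0.77 without obese replicate 1 and -0.22 without control replicate 1. Adipocyte markers were higher for 8 of 9 genes. The groups did not overlap for 2 of these, beside 15.6% of all tested probe sets and 21.0% of the bright ones. The adipocyte median log2 difference was 0.14, with 0.22 without obese replicate 1 and 0.05 without obese replicate 2. It was also 0.05 without control replicate 2. Summed signals of the adipocyte markers overlapped, at 13959.2 and 16784 in obese and 14327.1 and 13787.2 in control tissue. The fat identity of the samples was evident in Fabp4, the adipocyte fatty acid binding protein, at 3092.3 and 3679.8 in obese and 2853.1 and 3134.1 in control tissue. The 8 endothelial markers summed to 2435.1 and 2434.4 in obese and 2348.7 and 2445.7 in control tissue.

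Tissues rich in mitochondria were looked for by their own markers. The brown fat uncoupling protein Ucp1 had low signals of 25.8 and 33.9 in obese and 44 and 31.5 in control tissue, and Dio2, Cox8b and Ppara were under the floor on every array. The 8 measured brown fat genes summed to 1413.5 and 1858.7 in obese and 1151.8 and 1413.9 in control tissue. Most of that came from Cidea and Adrb3. Cidea, also expressed in white adipocytes, read 663.8 and 1031.2 against 513.9 and 560.2, and Adrb3 read 601.4 and 649.3 against 471.6 and 719.7. Of 13 skeletal muscle genes, 6 (Mb, Myh2, Myh4, Myh7, Tnnt1 and Pvalb) were under the floor on all arrays, and the 13 summed to 1067.9 and 1121.8 in obese and 974.8 and 691.9 in control tissue. Most of that sum came from the main probe set of Myh1, at 738.3 and 905 in obese and 741.5 and 490.2 in control tissue. Other Myh1 probe sets varied. The brightest of them read 671.3 and 872.7 against 556.9 and 501.3, and the dimmest 115.2 and 122.5 against 122.5 and 120. Acta1 read 39 on obese replicate 1 and 9 on obese replicate 2, against 2.5 and 2.7 in control tissue. Tnnc2 read 85.2 and 19.2 in obese against 19.6 and 20.3 in control tissue.

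Arrays of the same group also differed from each other. For 6 of the 8 genes obese replicate 2 read higher than obese replicate 1, and for 6 of the 8 control replicate 2 read lower than control replicate 1. Over the 4816 probe sets at least as bright as the dimmest member, the median log2 difference of obese replicate 2 from obese replicate 1 was 0.01. Averaged over the 8 genes, the centred log2 signal was 0.02 and 0.18 on the obese arrays and -0.08 and -0.12 on the control arrays. The difference between groups exceeded the gap within both groups for 5 of the 8 genes.

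**Figure D4:**
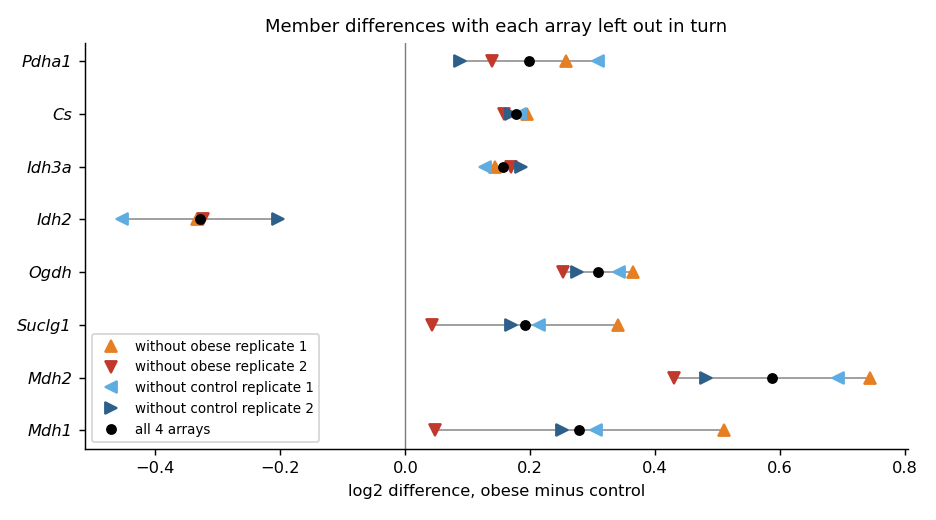
Log2 difference, obese minus control, of each member with all 4 arrays (circles) and with each array left out in turn (triangles). Since the groups of all 8 genes did not overlap, the direction could not turn in these fits; Suclg1 and Mdh1 come closest to 0, at 0.04 and 0.05 without obese replicate 2.

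Among 8888 genes outside the lists, those whose centred log2 signals over the 4 arrays lay nearest to the mean of the members were Pfdn4, Isoc2b and Mrps30, with root mean square distances of 0.00528, 0.0105 and 0.0108. Pfdn4, a prefoldin subunit, read 122.8 and 137.9 in obese against 114.5 and 111.2 in control tissue, and Mrps30, a mitochondrial ribosomal protein, read 186.7 and 208.7 against 176.7 and 173. Nearest to Mdh2 were Itfg1, Etfdh and Palmd, at distances of 0.0358, 0.0397 and 0.0467. Etfdh, the flavoprotein dehydrogenase that passes electrons from fatty acid oxidation to ubiquinone, read 182.9 and 229.8 in obese against 156.4 and 132.2 in control tissue. With 4 arrays, many of 8888 genes can lie near any profile.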

How the data were processed

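The table deposited by the authors holds a linear intensity for each probe set on each array. From its values, it had been scaled to a common trimmed mean; software and normalization were not given in the sources used here. After 57 control probe sets were left out, 15866 remained, of which the platform's annotation pairs 12783 with 1 symbol, 312 with several and 2771 with none. Signals under 20.8, the 20th percentile, were set to that floor before taking log2. Testing required 2 of the 4 arrays above it, and 12929 probe sets of 9012 genes qualified, including all 12 of the members.

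Obese minus control was fitted with limma 3.58.1 in R 4.3.3 (lmFit, eBayes with trend, 5.83 degrees of freedom, two-sided, Benjamini-Hochberg over all tested probe sets, threshold 0.05). Errors of log2 differences are moderated standard errors, which combine a probe set's own spread with that of other probe sets of similar signal. The code was tested on simulated data. The number of arrays limits the precision. The labels link same-numbered arrays only by that number, and the main fit did not pair them. The correlation of their deviations across probe sets was 0.0482, which cannot settle whether they were handled together.

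The members and lists were chosen with earlier results of these data known. Named are all members and, of each pathway list, the genes with the largest and smallest t, plus Pdk4, Pc, Acly and Slc25a1; Suclg2, Dld, Mpc2, Pdhb, Me1, Idh1 and Ppargc1a were named after their values were seen. Alternatives covered scaling, floor, filter, variance model, replicate block, probe set averaging and each array left out.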

Additional observations from a re-analysis of the deposited data

How the results depend on the processing

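None of the 8 members passed the threshold under any of 16 alternatives each (limma). Of these, only the other scalings and the averaging of a gene's probe sets could change the count of members without overlap: it was 7 higher and 1 lower under each scaling, and 6 higher and 1 lower when all probe sets of a gene were averaged. The direction of a member could not turn when an array was left out, because no groups overlapped, so those fits say nothing of its stability. The number of probe sets past an adjusted p of 0.05 was 0, with 1073 at an unadjusted p under 0.05; it was 3 with a pseudocount of 16 in place of the floor, 6 without a filter on dim probe sets, 1 without the variance trend and 1 with robust eBayes, and none of these was a member's. The members' median of 0.19 was 0.25 after median centring of each array, 0.17 with quantile normalization and 0.18 with cyclic loess; with single arrays left out it ran from 0.15 to 0.30, the highest without obese replicate 1. Over all tested probe sets, the shares lying apart upwards and downwards were 20.4% and 18.8% after median centring. With a replicate block, Mdh2 had an adjusted p of 0.506, the median was 0.19, and no call changed. Leaving arrays out of the pathway and marker lists was chosen after seeing the data. The mesothelial and epithelial list turned from 0.26 with all arrays to -1.20 without obese replicate 1. No exact test can pass the threshold with 2 arrays per group.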
